A study of Mus musculus with 2 samples.

Results

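The genes described here encode proteins of the tight junction, the epithelial adhesion molecule EpCAM and the sorting antigen CD24. They are 10 of the 31053 genes in the deposited count matrices, found by symbol: the claudins Cldn1, Cldn3, Cldn4, Cldn5 and Cldn7, the membrane proteins Ocln and F11r, the scaffold Tjp1, and Epcam and Cd24a. The study measured polyA RNA of single cells from the mammary gland of C57BL/6 mice, sorted as CD24high CD29+, with droplet-based 3' sequencing. There were 2 libraries, 1 with the genotype label Fgd5-ko (its title has cko) and 1 with the genotype label WT. The sources used here do not give the cells in which Fgd5 was deleted, the deleted part, the age or number of the mice, or the meaning of P4 in the titles. With 1 library per group there is no spread between animals, so no difference was tested. All intervals in parentheses are at 95% and cover counting error only.

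Tight junctions seal the space between neighbouring epithelial or endothelial cells. Claudins span the membrane and set what passes, occludin (Ocln) and the junctional adhesion molecule JAM-A (F11r) sit beside them, and ZO-1 (Tjp1) ties them to the actin cytoskeleton. EpCAM binds claudins in the membrane, and CD24 is a surface glycoprotein used together with CD29 to separate mammary epithelial populations. In the mammary gland the tight junctions lie between luminal cells, which line the lumen, while basal (myoepithelial) cells form the outer layer against the basement membrane.

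The sample labelled Fgd5-ko had 8798 barcodes and 136697801 UMIs (unique molecular identifiers, each standing for 1 captured RNA molecule), and the sample labelled WT had 10735 barcodes and 60566053 UMIs. Cells listed in the deposited cell table had a median of 15712 UMIs in the Fgd5-ko-labelled library and 4954 in the WT-labelled library. Clustering without the 10 genes put 6026 listed cells (99.4%) of the Fgd5-ko-labelled library and 6338 (96.2%) of the WT-labelled library into the basal-like class. Luminal-like classes held 22 cells of the Fgd5-ko-labelled library and 171 of the WT-labelled library. Endothelial-like and fibroblast-like classes came from barcodes that the table does not list, with 163 and 589 barcodes in the Fgd5-ko-labelled library and 784 and 1067 in the WT-labelled library. Fgd5 went against its label, with 416 UMIs (4.02 CPM, counts per 1000000 of the class total) in basal-like cells of the Fgd5-ko-labelled library and 26 (0.731 CPM) in those of the WT-labelled library. Both are therefore called by their labels throughout, and 3' tags do not show the deleted part. They share 34 barcodes, among them those of 26 basal-like cells of the Fgd5-ko-labelled library and 19 of the WT-labelled library.

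Promoters are shown for Epcam, Cldn3, Cldn4 and Cldn7, which were all highest in luminal-like cells, and for Cldn5, which was highest in endothelial-like barcodes. The sequences are from RefSeq (build GRCm38.p6) and run 5' to 3' on the strand of the gene, from 250 bases before to 50 bases after each annotated start. Capitals mark matches, on either strand, to 5 motifs that were searched. The E-box, written CAGGTG, is bound by Snail and Zeb repressors of epithelial genes. The site written AACNGGTT is that of the Grainyhead-like (GRHL) activators. The GC box, written GGGCGG, is bound by Sp factors. The TATA box was searched as TATAAA in every window. The core motif of ETS factors was searched as CCGGAA in the same windows. No marked matches overlap.
Epcam, chr17:87635729-87636028, plus strand: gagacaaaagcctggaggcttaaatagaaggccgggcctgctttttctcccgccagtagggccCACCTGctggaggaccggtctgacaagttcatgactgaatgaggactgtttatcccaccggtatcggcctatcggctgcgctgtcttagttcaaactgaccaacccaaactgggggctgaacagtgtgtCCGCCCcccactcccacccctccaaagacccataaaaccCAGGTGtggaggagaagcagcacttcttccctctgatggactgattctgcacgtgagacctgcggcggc
Cldn3, chr5:134985964-134986263, plus strand: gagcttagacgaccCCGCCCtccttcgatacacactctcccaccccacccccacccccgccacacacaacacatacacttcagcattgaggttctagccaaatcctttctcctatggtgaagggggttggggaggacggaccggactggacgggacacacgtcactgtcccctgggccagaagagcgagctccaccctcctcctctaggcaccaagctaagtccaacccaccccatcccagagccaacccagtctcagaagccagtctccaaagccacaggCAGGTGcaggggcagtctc
Cldn4, chr5:134946885-134947184, minus strand: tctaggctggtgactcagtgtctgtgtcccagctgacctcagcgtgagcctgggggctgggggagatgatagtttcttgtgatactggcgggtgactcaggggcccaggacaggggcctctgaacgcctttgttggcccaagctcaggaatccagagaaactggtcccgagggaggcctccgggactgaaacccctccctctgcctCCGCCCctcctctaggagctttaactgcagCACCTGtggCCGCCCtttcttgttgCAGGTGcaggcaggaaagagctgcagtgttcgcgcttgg
Cldn7 first start, chr11:69964529-69964828, plus strand: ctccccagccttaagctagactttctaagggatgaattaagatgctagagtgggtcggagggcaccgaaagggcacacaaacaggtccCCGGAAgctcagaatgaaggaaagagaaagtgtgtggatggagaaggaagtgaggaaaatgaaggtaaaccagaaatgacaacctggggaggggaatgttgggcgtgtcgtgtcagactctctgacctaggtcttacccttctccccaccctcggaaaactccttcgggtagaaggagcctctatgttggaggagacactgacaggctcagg
Cldn7 second start, chr11:69965171-69965470, plus strand: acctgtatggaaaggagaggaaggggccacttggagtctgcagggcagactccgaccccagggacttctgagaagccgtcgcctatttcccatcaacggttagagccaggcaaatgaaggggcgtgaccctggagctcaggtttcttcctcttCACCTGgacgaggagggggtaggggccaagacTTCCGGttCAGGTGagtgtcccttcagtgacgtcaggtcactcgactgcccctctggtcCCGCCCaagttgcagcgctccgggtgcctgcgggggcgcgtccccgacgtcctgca
Cldn5, chr16:18776597-18776896, plus strand: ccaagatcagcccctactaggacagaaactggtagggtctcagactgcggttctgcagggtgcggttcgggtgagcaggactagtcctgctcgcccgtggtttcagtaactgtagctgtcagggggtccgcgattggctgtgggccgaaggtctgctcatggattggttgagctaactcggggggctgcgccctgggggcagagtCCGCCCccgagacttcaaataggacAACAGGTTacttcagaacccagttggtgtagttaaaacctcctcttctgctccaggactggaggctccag

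A promoter was matched for 9 of the 10 genes, in 11 windows because Cldn7 and Ocln have 2 annotated starts each. The E-box was found in 7 windows, those of Epcam, Cldn3, Cldn4, F11r, both starts of Ocln and the second start of Cldn7, while 20.2% of all 32851 windows of this length hold it. The 2 Ocln windows overlap and share 1 of these E-boxes. By gene, an E-box was found in 6 of the 9. Epcam has an E-box that begins at position -19 from the start, and Cldn4 has 1 on each side of the start, at -14 and 12. The GC box was found in 10 windows (35.7% of all), the ETS core in 3 (14.9%), and the GRHL site in 1, that of Cldn5 (2.09%). TATAAA was found in 0 of the 11 (13.6% of all). The 11 windows had 52.0% to 68.0% G and C bases, and the median of all windows was 52.7%. The part of this base composition in the motif counts was not tested. A match to these letters describes the sequence and was not tied to binding.

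Luminal-like cells carried far more RNA of the claudins Cldn3, Cldn4 and Cldn7, of Ocln and of Epcam than basal-like cells. In the Fgd5-ko-labelled library, 6 of the 10 genes were at least 2-fold higher in luminal-like than in basal-like cells, as were 31.4% of all genes measured there. In the WT-labelled library 7 were, against 20.1% of all genes. The 6 were Cldn3, Cldn4, Cldn7, Epcam, Cd24a and Ocln, and the seventh was Cldn1. Tjp1 and F11r stayed within 2-fold in both, and Cldn5 had 0 UMIs in luminal-like cells of the Fgd5-ko-labelled library, which allows up to 7.505 CPM, and 1 in those of the WT-labelled library.

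Cldn3, a barrier-forming claudin, stood at 760.5 CPM (677 to 851) in luminal-like and 8.06 CPM (7.53 to 8.63) in basal-like cells of the Fgd5-ko-labelled library, a log2 ratio of 6.56 (6.36 to 6.75). The WT-labelled library had 712 CPM (666 to 761) in luminal-like and 11.9 CPM (10.8 to 13.1) in basal-like cells, a log2 ratio of 5.9 (5.74 to 6.07). The luminal-like intervals overlap between the libraries, while both basal-like values lie far below them.

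Cldn4, another claudin of tight epithelia, stood at 235 CPM (190 to 288) in luminal-like and 0.8703 CPM (0.6998 to 1.07) in basal-like cells of the Fgd5-ko-labelled library. The WT-labelled library had 396 CPM (361 to 432) in luminal-like and 4.44 CPM (3.78 to 5.19) in basal-like cells. Its log2 ratios, 8.08 (7.65 to 8.51) in the Fgd5-ko-labelled library and 6.48 (6.21 to 6.74) in the WT-labelled library, were the largest of the 10 genes between these classes.

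Cldn7, which binds EpCAM, had 243 CPM in luminal-like and 2.39 CPM in basal-like cells of the Fgd5-ko-labelled library, a log2 ratio of 6.67 (6.31 to 7.01). It had 442 CPM in luminal-like and 7.79 CPM in basal-like cells of the WT-labelled library, a log2 ratio of 5.82 (5.61 to 6.04). Ocln followed the same order at lower levels. It had 40.03 CPM in luminal-like and 0.812 CPM in basal-like cells of the Fgd5-ko-labelled library, and 32.2 CPM in luminal-like and 1.66 CPM in basal-like cells of the WT-labelled library.

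Epcam differed less between the layers, and basal-like cells also carried it. It stood at 2259 CPM (2114 to 2411) in luminal-like and 402 CPM (398 to 406) in basal-like cells of the Fgd5-ko-labelled library, a log2 ratio of 2.49 (2.4 to 2.59). The WT-labelled library had 2158 CPM (2077 to 2241) in luminal-like and 332 CPM (326 to 338) in basal-like cells, a log2 ratio of 2.7 (2.64 to 2.76). As a share of the luminal-like level, the basal-like level of Epcam was 17.8% in the Fgd5-ko-labelled library and 15.4% in the WT-labelled library. That share was 1.06% and 1.67% for Cldn3, 0.3701% and 1.12% for Cldn4, and 0.984% and 1.76% for Cldn7, again in the Fgd5-ko-labelled library and the WT-labelled library. For 18 luminal marker genes its median was 0.386% in the Fgd5-ko-labelled library (range 0.0149% to 18.2%) and 0.329% in the WT-labelled library (range 0.0829% to 20.99%). The shares of these 3 claudins lie inside those ranges, and the part of luminal RNA in their basal-like levels was not tested.

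Cd24a stood at 490.3 CPM (424 to 564) in luminal-like and 116 CPM (114 to 118) in basal-like cells of the Fgd5-ko-labelled library, a log2 ratio of 2.08 (1.87 to 2.28). The WT-labelled library had 359 CPM (327 to 394) in luminal-like and 144 CPM (139.9 to 148) in basal-like cells, a log2 ratio of 1.32 (1.18 to 1.46). The sort had acted on the CD24 protein, so these levels describe cells that passed the gate. Cd24a has close copies in the mouse genome and reads may be divided among them, so its level is uncertain. The gene of the other sorting antigen, Itgb1 (CD29), ran the other way, with 213 CPM in luminal-like and 378 CPM in basal-like cells of the Fgd5-ko-labelled library, and 217 CPM in luminal-like and 453 CPM in basal-like cells of the WT-labelled library.

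**Figure D1:**
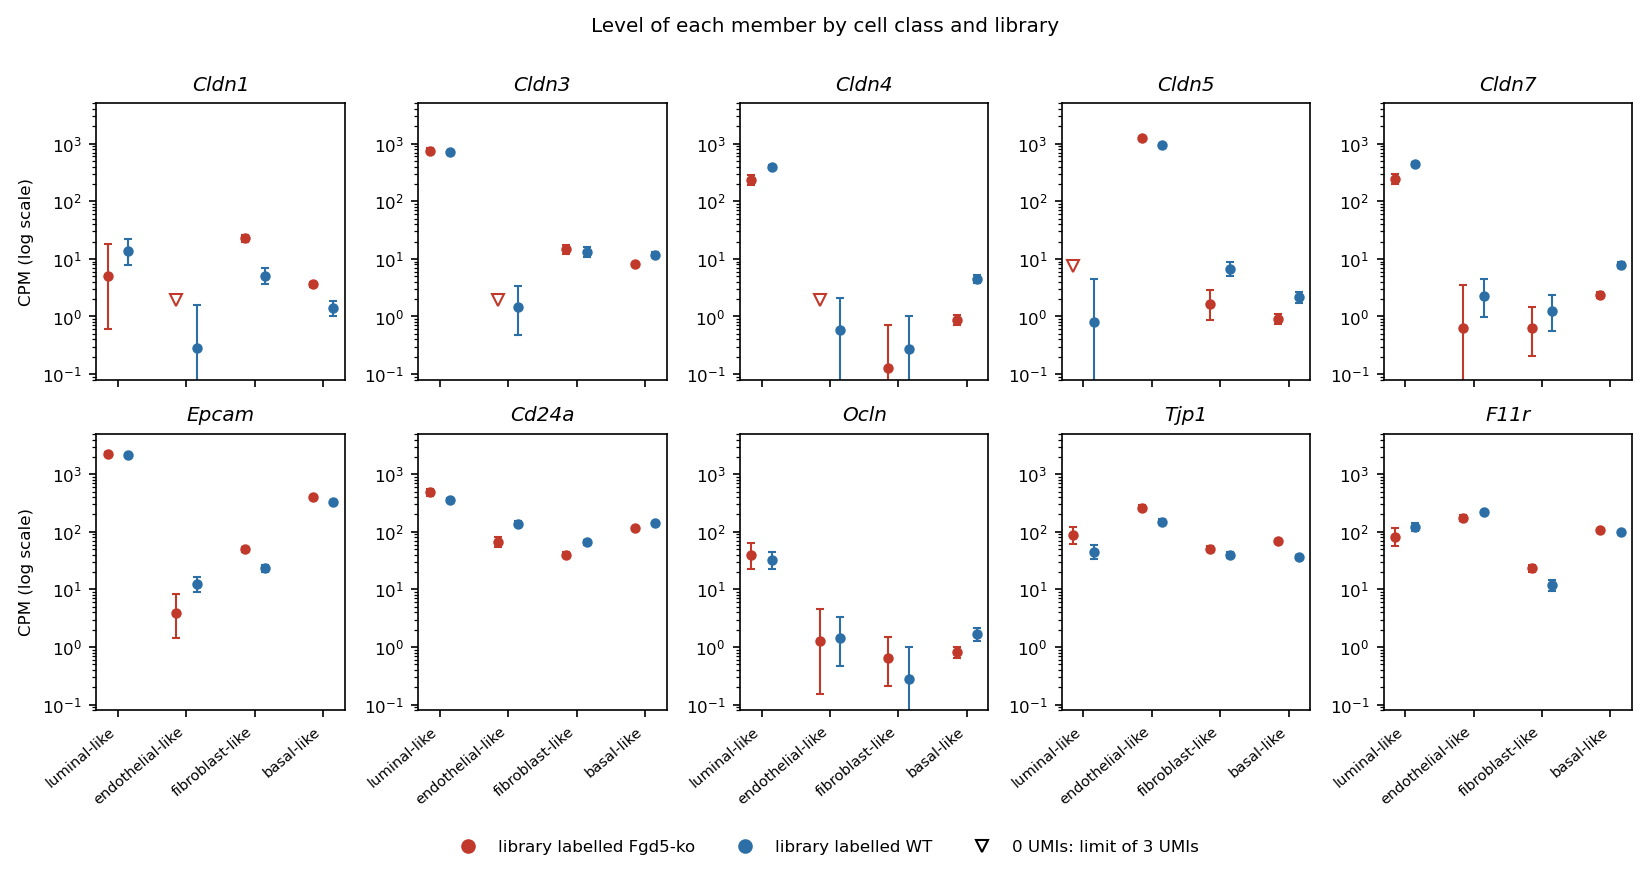
Level of each gene in CPM (log scale) by cell class, for the Fgd5-ko-labelled and the WT-labelled library, with exact Poisson intervals at 95% and, for 0 UMIs, the limit that they allow. Cldn3, Cldn4, Cldn7 and Epcam are highest in luminal-like cells and Cldn5 and Tjp1 in endothelial-like barcodes, in both libraries.

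The luminal-like cells comprised luminal progenitor and alveolar-like cells (17 in the Fgd5-ko-labelled library, 118 in the WT-labelled library) and hormone-sensing luminal-like cells (5 and 53), and the claudins divided between them. Cldn4 stood at 244 CPM in luminal progenitor and alveolar-like and 566 CPM in hormone-sensing luminal-like cells of the WT-labelled library, a log2 ratio of -1.22 (-1.5 to -0.94). Cldn3 ran the opposite way there, with 894 CPM in luminal progenitor and alveolar-like and 508 CPM in hormone-sensing luminal-like cells, a log2 ratio of 0.81 (0.61 to 1.02). Cldn1 was found in one of the types only, with 17 UMIs in luminal progenitor and alveolar-like and 0 in hormone-sensing luminal-like cells. Cd24a had 285 CPM and 443 CPM in these types, a log2 ratio of -0.64 (-0.92 to -0.36). Cldn7 and Epcam differed less, with log2 ratios of 0.27 (0.02 to 0.52) and 0.2 (0.08 to 0.31). The few such cells of the Fgd5-ko-labelled library gave the same order for Cldn4, at 92.2 CPM in luminal progenitor and alveolar-like and 626 CPM in hormone-sensing luminal-like cells, for Cd24a, at 191 CPM and 1308 CPM, and for Cldn3, at 813 CPM and 616 CPM. Epcam had the opposite order there, at 2163 CPM and 2522 CPM, and Cldn7 had 243 CPM in both types.

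Luminal-like barcodes that the cell table does not list (11 in the Fgd5-ko-labelled library, 88 in the WT-labelled library) gave levels of similar size. Epcam stood at 2142 CPM in the Fgd5-ko-labelled library and 1874 CPM in the WT-labelled library, Cldn3 at 754 CPM and 537 CPM, and Cldn4 at 188 CPM and 328 CPM. They come from the same cell suspensions and are no replicate.

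Cldn5, the main claudin of endothelial cells, was highest by far in endothelial-like barcodes. It stood at 1232 CPM (1177 to 1288) in endothelial-like and 0.919 CPM (0.743 to 1.12) in basal-like cells of the Fgd5-ko-labelled library, a log2 ratio of 10.39 (10.09 to 10.7). The WT-labelled library had 938 CPM (906 to 971) in endothelial-like and 2.17 CPM (1.71 to 2.71) in basal-like cells, a log2 ratio of 8.76 (8.43 to 9.1). Tjp1 was higher there too, with log2 ratios of endothelial-like over basal-like cells of 1.94 (1.79 to 2.08) in the Fgd5-ko-labelled library and 2.03 (1.88 to 2.18) in the WT-labelled library, and F11r had 0.67 (0.49 to 0.84) and 1.12 (1.0 to 1.23). So 2 of the 10 genes passed 2-fold in the Fgd5-ko-labelled library, where 25.3% of all genes did, and 3 in the WT-labelled library, where 16.9% did. The epithelial claudins were at or near 0. Endothelial-like barcodes of the Fgd5-ko-labelled library had 0 UMIs of Cldn3 and 0 of Cldn4, which allows up to 1.92 CPM of each, and 1 UMI of Cldn7. Those of the WT-labelled library had 5, 2 and 8. Epcam had 6 UMIs (3.84 CPM) in the Fgd5-ko-labelled library and 43 (12.4 CPM) in the WT-labelled library.

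Within the endothelial-like class Cldn5 differed widely between clusters, and the clusters made up different parts of the class in each library. The cluster led by Gkn3, Stmn2 and Sema3g had 2933 CPM (2691 to 3190.3) of Cldn5 in 30 barcodes of the Fgd5-ko-labelled library and 2598 CPM (2490 to 2710.1) in 320 of the WT-labelled library. The cluster led by Car4, Cfd and Timp4 had 2573 CPM (2430.2 to 2722) in 86 barcodes of the Fgd5-ko-labelled library and 1954 CPM (1830.2 to 2085) in 143 of the WT-labelled library. These were the high clusters. Low levels were found in the cluster led by Sele, Vwf and Selp, genes of venous or activated endothelium, with 124 CPM (87.4 to 171) in 27 barcodes of the Fgd5-ko-labelled library and 82.5 CPM (60.4 to 110.1) in 158 of the WT-labelled library. The cluster led by Glycam1, Ptgds and Ubd had 217 CPM (182 to 258) in 20 barcodes of the Fgd5-ko-labelled library and 71.4 CPM (58.9 to 85.7) in 163 of the WT-labelled library. The intervals of the high and low clusters do not overlap in either library.

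The log2 ratio of Cldn5, Fgd5-ko-labelled over WT-labelled, was 0.17 (0.04 to 0.31) in the Gkn3 cluster, 0.4 (0.27 to 0.52) in the Car4 cluster, 0.59 (-0.08 to 1.25) in the Sele cluster and 1.61 (1.23 to 1.98) in the Glycam1 cluster, so it was above 0 in all 4 with an interval that reached 0 in the Sele cluster. An unnamed cluster led by Esm1, Hbb-bs and Rbp7 had its highest marker score for the endothelial list. It was left out of the class because its top genes held more erythroid than endothelial markers. This cluster ran the other way, at -0.73 (-1.1 to -0.37), with 109.8 CPM in the Fgd5-ko-labelled library and 182 CPM in the WT-labelled library. So did the unnamed clusters led by Ccl20, Marco and Lyve1, at -0.66 (-0.79 to -0.53) (942 CPM in the Fgd5-ko-labelled library, 1489 CPM in the WT-labelled library), by Slpi, Sox17 and Ptprb, at -0.48 (-0.72 to -0.24), by Nrip2, Tesc and P2rx1, at -0.92 (-1.45 to -0.41), and by Pln, Foxs1 and Gm13889, at -5.3 (-10.68 to -2.65). The unnamed cluster led by H2-M9, Cyp26b1 and 1810011H11Rik stood at 0.69. Cd24a was nearly absent from the Car4 cluster, with 2 UMIs (4.25 CPM) in the Fgd5-ko-labelled library and 6 UMIs (12.7 CPM) in the WT-labelled library. The other 3 endothelial-like clusters had 83.9 to 121 CPM of Cd24a in the Fgd5-ko-labelled library and 148 to 182 CPM in the WT-labelled library. Tjp1 was highest in the Car4 cluster, at 486 CPM in the Fgd5-ko-labelled library and 357 CPM in the WT-labelled library, and lowest in the Glycam1 cluster, at 93.8 CPM and 61.97 CPM. F11r ranged over the 4 clusters from 110.2 to 236 CPM in the Fgd5-ko-labelled library and from 145 to 324 CPM in the WT-labelled library.

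**Figure D2:**
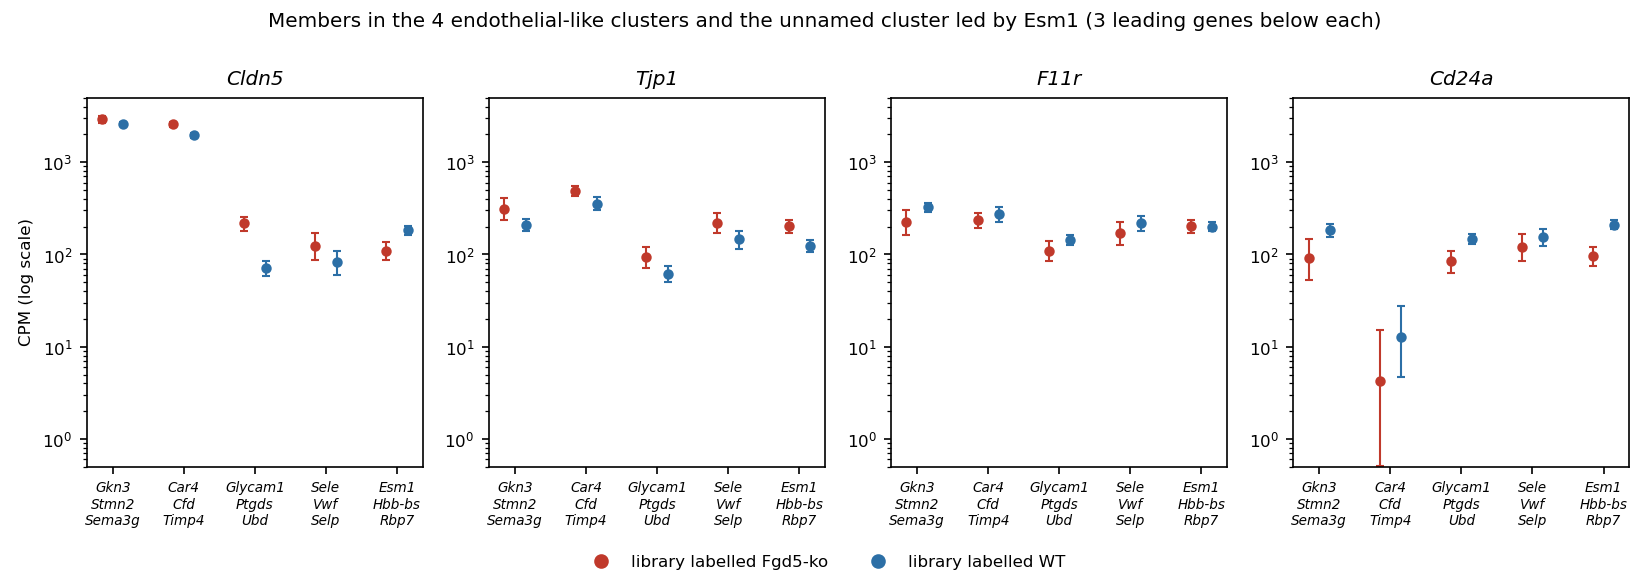
Levels in CPM (log scale) in the endothelial-like clusters and the unnamed cluster led by Esm1, for the Fgd5-ko-labelled and the WT-labelled library, with exact Poisson intervals at 95%. Cldn5 is high in the clusters led by Gkn3 and Car4, and Cd24a is low in the cluster led by Car4.

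Fibroblast-like barcodes carried some of these transcripts, mostly in single clusters. Cldn3 stood at 14.6 CPM (12.1 to 17.6) in fibroblast-like barcodes of the Fgd5-ko-labelled library and 13.3 CPM (10.8 to 16.2) in those of the WT-labelled library, so the basal-like levels given above did not exceed it in either library. Most of it lay in 1 cluster per library. The cluster led by Mrgprg, Ptx3 and Duoxa1 gave 97 of 115 UMIs (35.5 CPM) in the Fgd5-ko-labelled library, and the cluster led by Krtdap, Akr1c18 and Sbsn gave 73 of 96 (28.4 CPM) in the WT-labelled library. Epcam was low in these clusters, at 2.56 CPM and 2.33 CPM. Cldn1, a claudin of the epidermal barrier, reached 169.6 CPM (149 UMIs) in the Fgd5-ko-labelled library and 114 CPM (32 UMIs) in the WT-labelled library in the cluster led by Sfrp5, Angptl1 and Smoc2. Epcam reached 252 CPM in the Fgd5-ko-labelled library and 131 CPM in the WT-labelled library in the cluster led by Smoc2, Mfap4 and Rbp4, whose second marker score was basal.

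Per cell, Epcam was the most widely detected of the 10 genes in basal-like cells. With each cell thinned to 2000 UMIs (shallower cells left out), an Epcam UMI was found in 49.6% (48.4 to 50.9) of basal-like cells of the Fgd5-ko-labelled library and 45.4% (44.2 to 46.6) of those of the WT-labelled library. Thinning left out 0 basal-like, 0 luminal-like, 9 fibroblast-like and 9 endothelial-like barcodes of the Fgd5-ko-labelled library and 61, 9, 39 and 180 of the WT-labelled library. Luminal-like cells had 95.5% and 95.1%, and fibroblast-like barcodes 3.103% and 2.33%. Cd24a was found in 18.9% (17.9 to 19.9) of basal-like cells of the Fgd5-ko-labelled library and 23.5% (22.5 to 24.6) of those of the WT-labelled library, with 6.03% and 9.05% of fibroblast-like barcodes. F11r was found in 19.7% and 18.9% of basal-like cells, with 3.28% and 2.33% of fibroblast-like barcodes. These 3 genes stood above the fibroblast-like shares in both libraries. Endothelial-like barcodes had Cd24a in 10.4% (6.06 to 16.3) in the Fgd5-ko-labelled library and 21.2% (18.00 to 24.7) in the WT-labelled library, at unthinned medians of 5850 and 2974 UMIs. The log2 ratio of the Cd24a level in endothelial-like over basal-like cells was -0.77 (-1.06 to -0.5) in the Fgd5-ko-labelled library and -0.05 (-0.19 to 0.09) in the WT-labelled library, so in the WT-labelled library the interval holds 0.

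Tjp1 was found in 12.9% (12.1 to 13.8) of basal-like cells of the Fgd5-ko-labelled library and 6.91% (6.299 to 7.57) of those of the WT-labelled library, while fibroblast-like barcodes had 10.3% and 7.296%. Cldn3 was found in 1.51% (1.22 to 1.85) and 2.23% (1.88 to 2.63) of basal-like cells, with 2.76% and 2.72% of fibroblast-like barcodes, where most of it lay in 1 cluster per library. Endothelial-like barcodes had 0% (0 to 1.95) and 0.497% (0.103 to 1.44) for Cldn3, and by level 0 CPM (0 to 1.92) in the Fgd5-ko-labelled library and 1.45 CPM (0.469 to 3.37) in the WT-labelled library, below the basal-like levels of both. Cldn4 was found in 0.216% and 0.653% of basal-like cells and in 0 of the thinned fibroblast-like barcodes, which allows up to 0.517% and 0.292%, and Cldn7 in 0.531% and 1.45%, against 0.172% and 0.292% of fibroblast-like barcodes. Without thinning, Epcam was found in 94.3% of basal-like cells of the Fgd5-ko-labelled library at a median of 15724 UMIs and in 72.5% of those of the WT-labelled library at 4944 UMIs. The unthinned fibroblast-like shares were 11.5% at 12725 UMIs and 6.65% at 6572 UMIs.

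The share of cells with UMIs of both Epcam and Cd24a depends on how often each was captured at this depth. Whether these genes went together within cells was not tested. UMIs of both were found in 8.96% (8.25 to 9.71) of thinned basal-like cells of the Fgd5-ko-labelled library and 10.9% (10.2 to 11.7) of those of the WT-labelled library, and in 50% (28.2 to 71.8) and 40.7% (33.1 to 48.7) of luminal-like cells. Neither was found in 40.4% of basal-like cells of the Fgd5-ko-labelled library and 42.01% of those of the WT-labelled library, although the cells had been sorted for the CD24 protein.

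**Figure D3:**
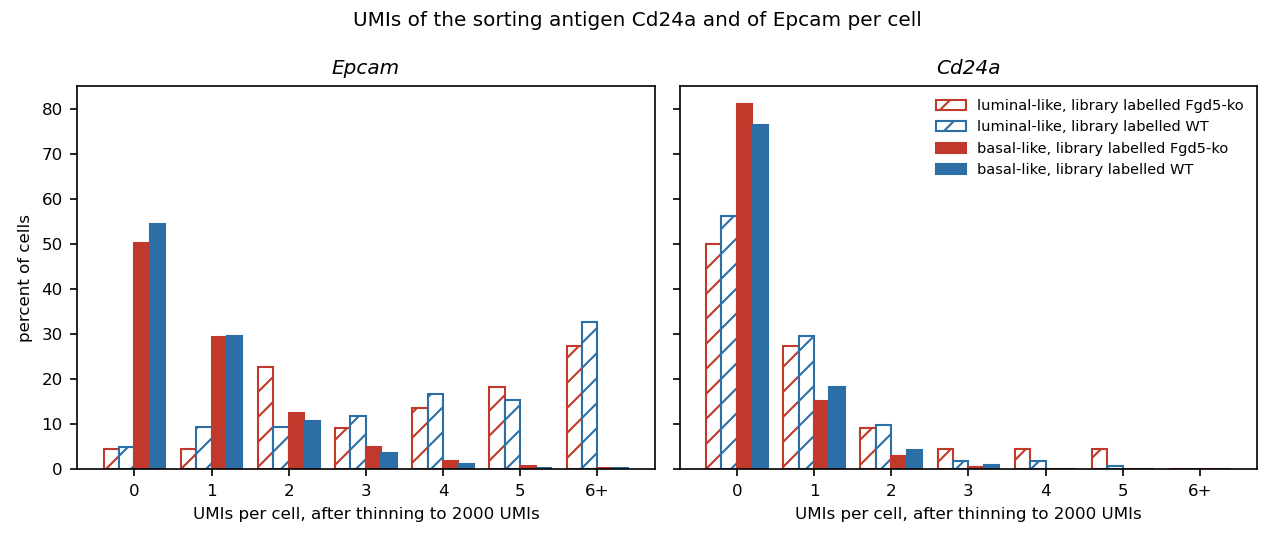
Percent of luminal-like and basal-like cells by the number of Epcam and of Cd24a UMIs after thinning each cell to 2000 UMIs, for the Fgd5-ko-labelled and the WT-labelled library. For Epcam, 27.3% and 32.7% of luminal-like cells have 6 or more UMIs, against 0.332% and 0.255% of basal-like cells.

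Between the libraries, Cldn4, Cldn5, Cldn7 and Ocln were at least 1.5-fold lower in basal-like cells of the Fgd5-ko-labelled library than of the WT-labelled library, and Cldn1 and Tjp1 were at least 1.5-fold higher. Over all 15049 genes measured, 10.4% were lower and 27.0% higher by that fold, and with TMM scaling of the sums 14.4% and 19.1%. The median log2 ratio was -0.44 over the 10 genes and 0.24 over all genes. Cells of the libraries fell into different basal-like clusters: only those led by Cenpf, Cenpa and Cdc20 and by BC100530, Aldh3a1 and Ly6d held more than 30 cells of each, so each ratio sets mostly different clusters side by side.

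Cldn4 had 90 UMIs in basal-like cells of the Fgd5-ko-labelled library and 158 in those of the WT-labelled library, a log2 ratio of -2.35 (-2.74 to -1.97). Cldn7 had 247 UMIs in the Fgd5-ko-labelled library, 2.39 CPM (2.100 to 2.71), and 277 in the WT-labelled library, 7.79 CPM (6.900 to 8.76), a log2 ratio of -1.71 (-1.96 to -1.45). Both lay below the 10th percentile of all genes, -0.61, and below that of genes averaging under 15 CPM, -0.78. Among basal-like cells with no UMI of the luminal marker lists (3396 in the Fgd5-ko-labelled library, 5027 in the WT-labelled library) the log2 ratios were -2.34 (-2.92 to -1.79) for Cldn4 and -1.72 (-2.05 to -1.39) for Cldn7. Among those of 4000 to 12000 UMIs (1571 and 4433 cells) they were -1.42 (-2.1 to -0.79) and -1.38 (-1.88 to -0.91). Over all luminal-like cells the ratios were -0.75 (-1.08 to -0.43) for Cldn4 and -0.86 (-1.19 to -0.55) for Cldn7, but the luminal types make up different parts of that class in each library. Within luminal progenitor and alveolar-like cells Cldn4 had 92.2 CPM in the Fgd5-ko-labelled library and 244 CPM in the WT-labelled library, and within hormone-sensing luminal-like cells 626 CPM in the Fgd5-ko-labelled library and 566 CPM in the WT-labelled library. Cldn7 had 243 CPM and 479.7 CPM in luminal progenitor and alveolar-like cells of the Fgd5-ko-labelled library and the WT-labelled library, and 243 CPM and 399 CPM in hormone-sensing luminal-like cells. Basal-like barcodes that the cell table does not list gave -0.65 (-1.45 to 0.22) for Cldn4 and 0.2 (-1.21 to 1.94) for Cldn7, with 18 and 5 UMIs in the WT-labelled library. Summed over basal-like cells, the luminal progenitor and alveolar marker list stood at 37.9 CPM in the Fgd5-ko-labelled library and 44.5 CPM in the WT-labelled library, with 0 and 1 of its 9 markers at 0, and the hormone-sensing list at 20.1 CPM and 24.4 CPM, with 0 of 10 at 0. Their part in these differences was not tested.

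Cldn5 had 95 UMIs in basal-like cells of the Fgd5-ko-labelled library, 23 of them in 1 cell, and 77 in those of the WT-labelled library. Its log2 ratio of -1.24 (-1.69 to -0.78) was -0.54 (-1.12 to 0.04) in cells with no luminal marker UMI and -0.53 (-1.35 to 0.23) in cells of 4000 to 12000 UMIs, where both intervals reach 0. Basal-like barcodes that the cell table does not list ran the other way, at 2.13 (0.17 to 5.22), from 38 UMIs in the Fgd5-ko-labelled library and 2 in the WT-labelled library. The endothelial marker list stood at 9.42 CPM in the Fgd5-ko-labelled library and 11.8 CPM in the WT-labelled library in basal-like cells, with 0 of 10 markers at 0, and its part was not tested. Ocln had 84 UMIs in the Fgd5-ko-labelled library and 59 in the WT-labelled library, a log2 ratio of -1.03 (-1.53 to -0.53). Cldn3 had a log2 ratio of -0.56 (-0.73 to -0.39), inside 1.5-fold, and passed it under TMM scaling, at -0.74 (-0.91 to -0.56).

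Tjp1 stood at 68.5 CPM (66.9 to 70.1) in basal-like cells of the Fgd5-ko-labelled library and 36.9 CPM (34.9 to 38.9) in those of the WT-labelled library, a log2 ratio of 0.89 (0.81 to 0.98). It was higher in the Fgd5-ko-labelled library in other classes too, at 0.96 (0.3 to 1.59) in luminal-like cells, 0.8 (0.61 to 0.99) in endothelial-like barcodes and 0.38 (0.15 to 0.6) in fibroblast-like barcodes. Luminal progenitor and alveolar-like cells had 106 CPM of Tjp1 in the Fgd5-ko-labelled library and 51.8 CPM in the WT-labelled library. In hormone-sensing luminal-like cells Tjp1 had 37.4 CPM, from 4 UMIs, in the Fgd5-ko-labelled library and 37.6 CPM in the WT-labelled library. Within the 4 endothelial-like clusters its log2 ratio was 0.45 to 0.61. In the unnamed cluster led by Ccl20, Marco and Lyve1 it was below 0, at -0.42 (-0.75 to -0.08). Cldn1 had 376 UMIs (3.64 CPM) in basal-like cells of the Fgd5-ko-labelled library and 49 (1.38 CPM) in those of the WT-labelled library, a log2 ratio of 1.4 (0.97 to 1.86). Its ratio was 2.15 (1.64 to 2.71) over fibroblast-like barcodes, 0.58 (0.02 to 1.18) within the cluster led by Sfrp5, and -0.1 (-0.91 to 0.79) in basal-like barcodes that the cell table does not list.

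Epcam, Cd24a and F11r, the genes with the most UMIs, differed by less than 1.5-fold. Epcam had a log2 ratio of 0.27 (0.24 to 0.3), near the median of all genes. Cd24a had -0.31 (-0.36 to -0.26), and was also lower in endothelial-like barcodes of the Fgd5-ko-labelled library, at -1.03 (-1.35 to -0.73), and in fibroblast-like ones, at -0.71 (-0.92 to -0.51). F11r stood at 109 CPM in the Fgd5-ko-labelled library and 99.98 CPM in the WT-labelled library, a log2 ratio of 0.13 (0.07 to 0.18) that became -0.05 (-0.1 to 0.01) under TMM scaling.

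**Figure D4:**
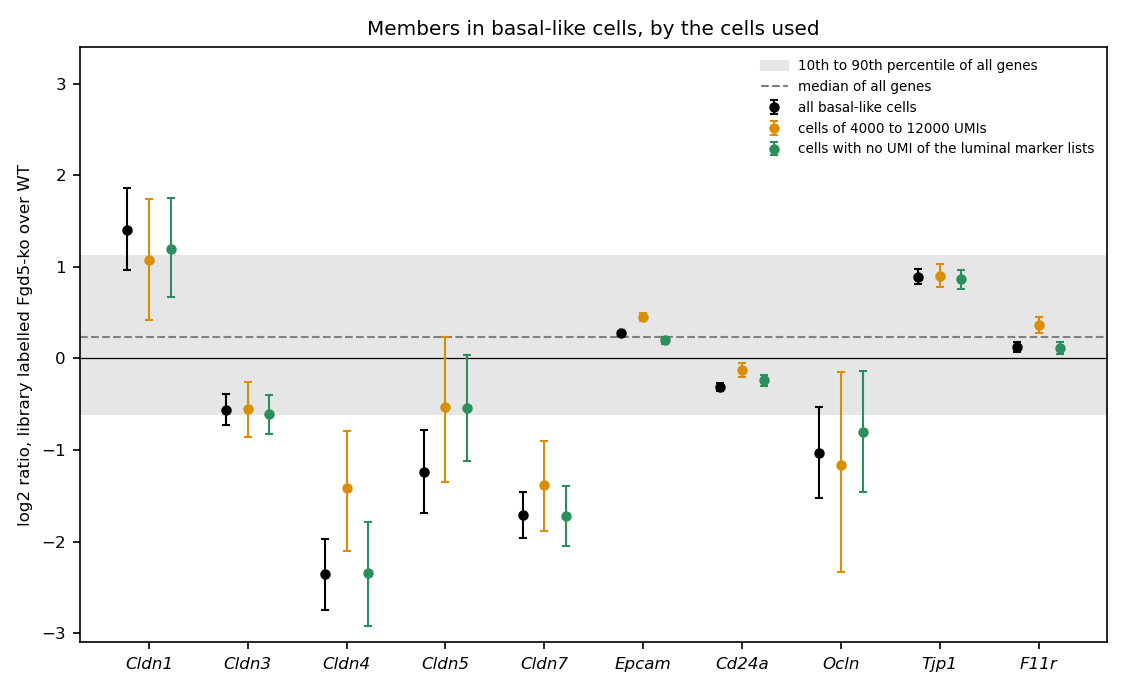
Log2 ratio, Fgd5-ko-labelled over WT-labelled library, of each gene in all basal-like cells, in those of 4000 to 12000 UMIs and in those with no UMI of the luminal marker lists, with exact conditional intervals at 95% and a band from the 10th to the 90th percentile of all genes, -0.61 to 1.12. The band is that of all genes in all basal-like cells. Cldn4, Cldn7 and Ocln lie below it in all 3 sets of cells, with intervals of Ocln that reach into it. The intervals of Cldn5 reach 0 in both restricted sets.

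Basal-like clusters differed in these genes within each library, and the clusters highest in Epcam were not always highest in Cd24a. Over clusters of at least 50 cells, Epcam ranged from 256 to 611 CPM in the Fgd5-ko-labelled library (9 clusters) and from 218 to 607 CPM in the WT-labelled library (8 clusters), and Cd24a from 42.5 to 156 CPM and from 67.6 to 205 CPM. Both clusters led by Srxn1, an antioxidant gene, combined high Epcam (578 and 611 CPM) with low Cd24a (72.2 and 69.4 CPM) in the Fgd5-ko-labelled library. The cluster led by Coch had 256 CPM of Epcam and 137 CPM of Cd24a there. In contrast, the BC100530 cluster was highest in both among the clusters of the WT-labelled library, with 607 CPM of Epcam and 205 CPM of Cd24a. It held 38 cells of the Fgd5-ko-labelled library, below the limit of 50, so it was not ranked there for either gene.

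The BC100530 cluster was also the richest in Cldn4, with 24 UMIs (38.4 CPM) in 38 cells of the Fgd5-ko-labelled library and 51 UMIs (53.6 CPM) in 111 cells of the WT-labelled library. The other clusters of at least 50 cells had 0.136 to 2.02 CPM in the Fgd5-ko-labelled library and 0.941 to 5.29 CPM in the WT-labelled library. Leaving that cluster out gave a basal-like log2 ratio of Cldn4 of -2.27 (-2.73 to -1.81). Cldn3 was highest in the cluster of the mitotic genes Cenpf, Cenpa and Cdc20 in the Fgd5-ko-labelled library, at 22.6 CPM (19.3 to 26.4), where the WT-labelled library had 16.9 CPM (9.68 to 27.5). Among clusters of the WT-labelled library it was highest in the one led by Gfra2, at 20.3 CPM. Tjp1 ranged from 54.3 to 76.7 CPM over the clusters of the Fgd5-ko-labelled library and from 26.3 to 61.2 CPM over those of the WT-labelled library.

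**Figure D5:**
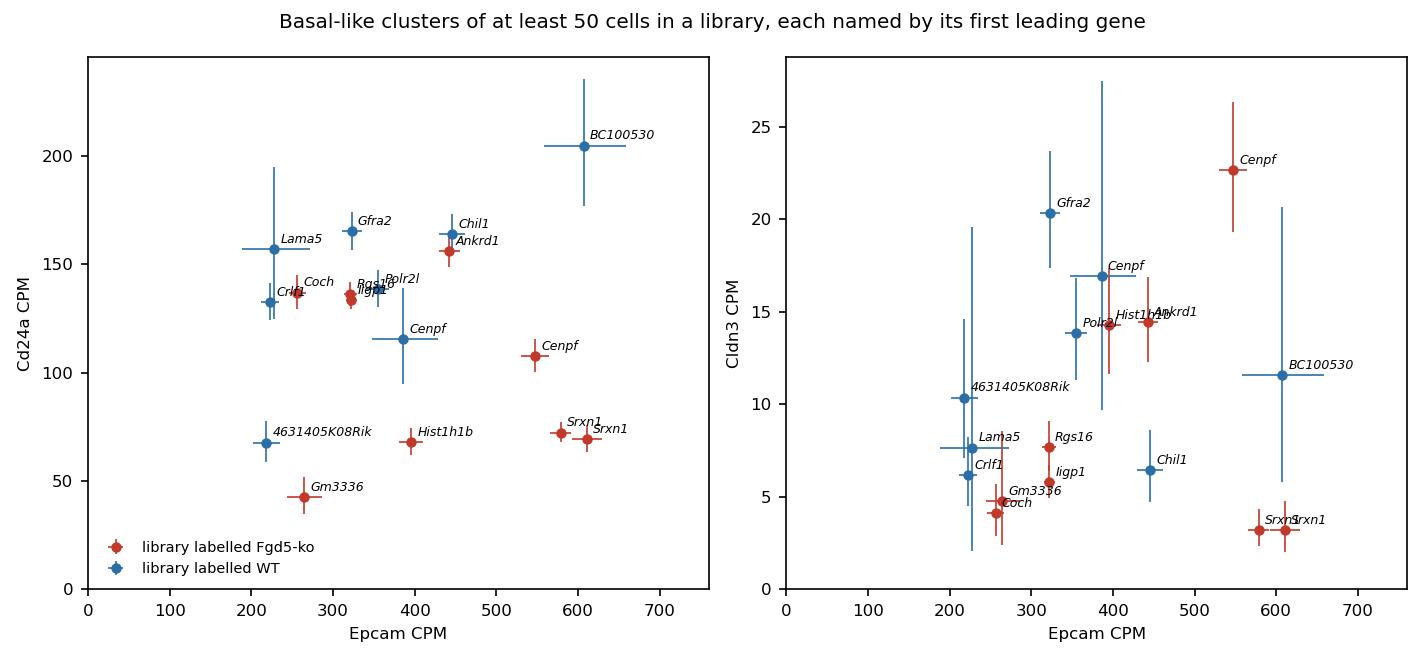
Epcam against Cd24a and against Cldn3, in CPM, in basal-like clusters of at least 50 cells of the Fgd5-ko-labelled and the WT-labelled library, with exact Poisson intervals at 95% and the leading gene of each cluster. The clusters led by Srxn1 lie at high Epcam with low Cd24a and low Cldn3.

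Among 71 other listed genes of junctions, polarity and their regulators, 59 had at least 20 UMIs over the basal-like cells of both libraries. Of these, 15 were at least 1.5-fold higher in the Fgd5-ko-labelled library, 7 were lower and 37 lay within that fold, with a median log2 ratio of 0.18. These shares, for the roles below too, are to be read beside the 27.0% of all genes higher and 10.4% lower. Scaffold and polarity genes were higher in 4 and lower in 0 of 22, with Pard3 at 0.79 (0.71 to 0.87), Pals1 (Mpp5 in the files) at 0.71 (0.59 to 0.82) and Amotl2 at -0.46 (-0.57 to -0.35) on the log2 scale. Other junction membrane proteins were higher in 3 and lower in 3 of 10. Cxadr, an adhesion protein and virus receptor, stood at 0.66 (0.6 to 0.71), and Lsr, a protein of tricellular junctions, at -0.38 (-0.47 to -0.3). Of the 7 other claudins measured, 3 were higher and 1 was lower. Cldn18 had 0 UMIs in basal-like cells of both, and Cldn14, Cldn19 and Igsf5 had 2, 5 and 1 in the Fgd5-ko-labelled library and 0 in the WT-labelled library.

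Of 4 genes whose products cleave EpCAM or inhibit that cleavage, 1 was lower, the protease inhibitor Spint2, at -0.86 (-0.88 to -0.83), with 251 CPM in the Fgd5-ko-labelled library and 455 CPM in the WT-labelled library. Transcription factors of junction genes were higher in 4 and lower in 2 of 14, with Klf5 at 0.73 (0.66 to 0.81), Grhl2, an activator of epithelial junction genes, at 0.32 (0.2 to 0.45), Snai2 (Slug), a repressor of them, at 0.3 (0.24 to 0.37) and Klf4 at 0.17 (0.13 to 0.21). Snai2 had 12.5 CPM in luminal-like and 79.95 CPM in basal-like cells of the Fgd5-ko-labelled library. The WT-labelled library had 10.5 CPM and 64.7 CPM. This order is the reverse of that of Cldn3, Cldn4 and Cldn7. Grhl2 had 15.01 CPM in luminal-like and 23.03 CPM in basal-like cells of the Fgd5-ko-labelled library. In the WT-labelled library its order was the other way, at 31.4 CPM and 18.4 CPM. Klf4 had 340 CPM and 257 CPM in these classes of the Fgd5-ko-labelled library, and 168 CPM and 229 CPM in the WT-labelled library. Klf5 had 80.1 CPM and 89.2 CPM in the former and 47.5 CPM and 53.7 CPM in the latter. Whether any of these factors acts on the claudins was not tested. Itgb1, the gene of the sorting antigen CD29, stood at -0.26 (-0.29 to -0.24). Cd44, whose product is not among the sorting antigens given above, stood at 0.76 (0.66 to 0.86).

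The genes most like each of the 10 were sought among 5493 genes over 13 sums of a class in a library, as a description only, since the sums share the libraries and their depth. Epcam was most like the keratin gene Krt8 (Pearson r = 0.98), Sox9 and Krtcap3. Cldn3 was most like Tmem30b (0.96), Cldn7 and Crb3, Cldn4 most like Krt7 (0.98), Smim22 and Tmprss2, and Cldn7 most like Smim22 (0.99), Cldn4 and Aqp5. Cldn5 was most like Selp (0.99), Il2rg and Rasip1. These sums pool the endothelial-like clusters of a library, and Cldn5 was low in the cluster led by Sele, Vwf and Selp. Tjp1 was most like Kank3 (0.93), Fgd5 and Lcorl, and Fgd5 itself was, like Tjp1, high in endothelial-like barcodes, with 119.7 CPM in the Fgd5-ko-labelled library and 92.5 CPM in the WT-labelled library. F11r was most like Etl4 (0.92), Cd24a most like Irx3 (0.95), Ocln most like Tead2 (0.96) and Cldn1 most like Cyp39a1 (0.87).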

How the data were processed

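The authors deposited raw UMI counts by gene and barcode for each library, in files whose header gives software version 3.1.0, and a table of cells with t-SNE scores, of which the scores were not used. Cell Ranger, Seurat 3.0 and mm9 are named, with no role, per the submitters' processing notes. The files hold no coordinates, and those printed are of GRCm38, where 31011 of the 31053 gene IDs were found. Barcodes outside the table were kept with 1000 UMIs, 500 genes and no more than 15% of UMIs from mitochondrially encoded genes.

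For clustering (scanpy 1.11.5, leidenalg 0.10.2), each cell was scaled to 10000 and logged, and 2000 variable genes, 30 principal components, 15 neighbours and resolution 1 were used. The 10 genes and the other listed junction genes were left out of it. Clusters were named from marker lists when the best list exceeded the second by 1 on the log2 scale with 3 markers detected in 10% of the cells. A cluster past these limits still stayed unnamed where its top genes held more markers of another list. The same held where it was shallow with no marker of its best list among its top genes. No doublet caller was run.

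Counts were summed by class and library and given as CPM with exact Poisson intervals, shares with Clopper-Pearson intervals, and ratios with exact conditional intervals (SciPy 1.17.1), all at 95%. A count of 0 allows up to 3. Ratios over all genes needed 20 UMIs in both sums together, and their code was tested on simulated data. The members, gene lists and comparisons were chosen with earlier results of these data known. All 10 genes are named, and of the other lists those at 0 and, per role, up to 4 that averaged at least 20 CPM and had the greatest absolute log2 ratios. Some genes that this rule names are not reported here. Class levels of Snai2, Grhl2, Klf5 and Klf4 were added after their values were seen. Alternatives changed the scaling (including TMM of edgeR 4.0.16), the cells, the resolution, the count filter and the thinning.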

Additional observations from a re-analysis of the deposited data

Results flagged for a closer look

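In 4 cases the log2 ratio of Fgd5-ko-labelled over WT-labelled library had intervals on opposite sides of 0 in another class and in basal-like cells. The difference between classes was not tested. Cldn5 stood at 0.39 (0.31 to 0.47) in endothelial-like barcodes and -1.24 (-1.69 to -0.78) in basal-like cells. Epcam stood at -1.69 (-3.22 to -0.46) in endothelial-like barcodes, from 6 UMIs in the Fgd5-ko-labelled library and 43 in the WT-labelled library, of which 37 lay in the Glycam1 cluster, and at 0.27 (0.24 to 0.3) in basal-like cells. Cd24a stood at 0.45 (0.2 to 0.69) in luminal-like and -0.31 (-0.36 to -0.26) in basal-like cells, and 5 hormone-sensing luminal-like cells gave 140 of its 196 luminal-like UMIs in the Fgd5-ko-labelled library. F11r stood at -0.32 (-0.53 to -0.12) in endothelial-like barcodes and 0.13 (0.07 to 0.18) in basal-like cells.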

How the results depend on the processing

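The number of the 10 genes at least 1.5-fold higher in basal-like cells of the Fgd5-ko-labelled library than of the WT-labelled library was 2 under every alternative run, the number lower was 3 to 5, and the number at least 2-fold higher in luminal-like than in basal-like cells was 5 to 7. Of all genes, 18.7% to 28.2% were higher and 9.31% to 14.9% lower between the libraries under these alternatives. For luminal-like over basal-like cells the share of all genes was computed for the main setting only. It was 31.4% in the Fgd5-ko-labelled library and 20.1% in the WT-labelled library. The F11r log2 ratio in basal-like cells was 0.13 (0.07 to 0.18) as given, -0.046 under TMM and -0.063 under median ratio scaling. In these data each of these scalings lowered the log2 ratio of every gene by the same amount. The sign of the F11r ratio therefore depends on the scaling. The Cldn5 log2 ratio of endothelial-like over basal-like cells, 10.39 in the Fgd5-ko-labelled library and 8.76 in the WT-labelled library, was 9.97 and 8.37 at resolution 0.5 and 9.88 and 8.35 with the Esm1 cluster added, 9.83 in the Fgd5-ko-labelled library at resolution 2, and 8.22 in the WT-labelled library in cells of 4000 to 12000 UMIs. The cause was not tested. By share of basal-like cells with a UMI, 3 genes were higher and 4 lower in the Fgd5-ko-labelled library with intervals apart, and without thinning, at unequal depth, 6 and 0. The share of all genes with intervals apart was not computed, so these counts do not set the 10 genes apart from other genes. Of 110 ratios of single genes under the alternatives, 75 stayed inside the interval of the value given, 33 moved beyond it with the same sign, and 2 are those of F11r. Alternatives on the BC100530 and Esm1 clusters and on shared barcodes were chosen after seeing the data. No paired analysis was possible because each group has 1 library, and no replicate could be left out.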

Other observations

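Of 6026 basal-like cells of the Fgd5-ko-labelled library, 66 had a Cldn4 UMI, 197 a Cldn7 UMI and 82 an Ocln UMI. Of 6338 basal-like cells of the WT-labelled library, 96 had a Cldn4 UMI, 215 a Cldn7 UMI and 58 an Ocln UMI. The highest number of Cldn4 UMIs in a basal-like cell was 5 in the Fgd5-ko-labelled library and 6 in the WT-labelled library.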
